A study of Mus musculus with 10 samples.

Results

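The genes described are the transcriptional core of the circadian clock and its PAR-bZIP output factors: Arntl, Clock, Per1, Per2, Per3, Nr1d1, Nr1d2, Dbp, Tef and Hlf. They were taken by gene symbol from a table of read counts in mouse retina, where each symbol matched 1 row, so that the 10 genes are 10 of 35275. All 10 passed the filter on low counts that left 17435 genes for testing. The study dosed C57BL/6 mice, 10 to 12 weeks old, with vigabatrin (140 mg/kg/day over 11 days, by subcutaneous osmotic pump), an epilepsy drug that blocks the GABA-degrading enzyme GABA transaminase, and sequenced retinal RNA as 5 libraries. The other 5 libraries came from mice of that strain and age labelled vehicle under treatment but untreated in their titles. Each library is named by treatment and title number. Whether libraries are separate animals, or pools of retinas, is not stated, and p-values here cover only the spread among libraries. The sources used here do not give the time of day of collection.

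The clock is a loop of transcription factors. ARNTL (also called BMAL1) and CLOCK bind E-boxes as a dimer and activate the Per and Nr1d genes. PER proteins, with cryptochromes, then repress that dimer. The nuclear receptors NR1D1 and NR1D2 (REV-ERB alpha and beta) repress Arntl through elements that ROR receptors activate, which sets Arntl transcription in antiphase to the Per and Nr1d genes. DBP, TEF and HLF are PAR-bZIP activators that bind D-boxes, compete there with the repressor NFIL3, and pass the rhythm on to output genes. The mammalian retina holds its own clock, which shapes dopamine and melatonin release and light adaptation. Per1 is also induced by glucocorticoids and by CREB.

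Stretches of 250 bases upstream of the annotated start are shown for some of the repressor and output genes. E-boxes, D-boxes, ROR half-sites and cyclic AMP elements are in capitals, to show which of these words each stretch holds. The starts are RefSeq starts on GRCm38.p6, and the stretches are written 5′ to 3′ on the gene's own strand. Of the 10 genes, 9 had an entry in the RefSeq table used, and Per2 had none. Those of Per1 lie at chr11:69098699-69098948 on the plus strand, of Per3 at chr4:151044666-151044915 on the minus strand, of the second Tef entry at chr15:81811164-81811413 on the plus strand, of Nr1d1 at chr11:98775378-98775627 on the minus strand and of Hlf at chr11:90390918-90391167 on the minus strand.
Per1: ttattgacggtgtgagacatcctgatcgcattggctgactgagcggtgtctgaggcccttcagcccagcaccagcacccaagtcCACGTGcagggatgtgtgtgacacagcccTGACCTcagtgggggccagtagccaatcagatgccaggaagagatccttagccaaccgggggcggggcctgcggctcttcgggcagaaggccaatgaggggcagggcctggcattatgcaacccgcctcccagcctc
Per3: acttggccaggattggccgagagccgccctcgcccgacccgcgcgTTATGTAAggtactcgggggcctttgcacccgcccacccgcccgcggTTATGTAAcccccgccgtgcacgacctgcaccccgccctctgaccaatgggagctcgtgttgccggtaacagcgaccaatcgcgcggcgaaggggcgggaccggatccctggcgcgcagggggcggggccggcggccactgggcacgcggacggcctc
Tef: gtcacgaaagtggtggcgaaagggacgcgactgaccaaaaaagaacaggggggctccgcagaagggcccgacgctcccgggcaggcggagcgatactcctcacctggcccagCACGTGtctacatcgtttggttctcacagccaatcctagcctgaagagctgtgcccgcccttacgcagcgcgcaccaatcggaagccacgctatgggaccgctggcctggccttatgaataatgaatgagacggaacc
Nr1d1: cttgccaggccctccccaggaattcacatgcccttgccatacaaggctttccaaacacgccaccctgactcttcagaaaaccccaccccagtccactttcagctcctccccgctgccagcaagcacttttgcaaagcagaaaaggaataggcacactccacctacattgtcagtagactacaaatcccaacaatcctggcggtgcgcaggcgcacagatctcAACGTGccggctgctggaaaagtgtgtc
Hlf: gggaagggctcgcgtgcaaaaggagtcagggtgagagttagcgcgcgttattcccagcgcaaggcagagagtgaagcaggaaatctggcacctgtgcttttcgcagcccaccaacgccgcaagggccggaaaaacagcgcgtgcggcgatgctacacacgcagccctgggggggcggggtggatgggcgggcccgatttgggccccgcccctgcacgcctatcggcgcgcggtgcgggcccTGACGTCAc
Capitals mark, on either strand, the E-box CACGTG, the E-box variant CACGTT, the D-box TTATGTAA or TTACGTAA, the ROR half-site AGGTCA and the cyclic AMP element TGACGTCA. None of these words overlapped another in the stretches shown. The stretch of the first of 2 Per1 entries held 1 E-box and 1 half-site on the opposite strand, that of Tef 1 E-box, that of Nr1d1 1 E-box variant on the opposite strand and that of Hlf 1 cyclic AMP element. That of Per3 held 2 copies of TTATGTAA, the element that DBP, TEF and HLF bind. The upstream stretches of Dbp, of Arntl, of the second Per1 entry and of the first and second Clock entries, not printed, held none of these words. Those of the third Clock entry and of Nr1d2, also not printed, held 1 ROR half-site each, and that of the first Tef entry 1 E-box. Each printed stretch held at least 1 word, so the printed ones do not stand for all 14 entries of these genes. Over 32851 mouse entries of the same length, 6.02% held CACGTG, 3.85% CACGTT, 0.819% TTATGTAA, 0.113% TTACGTAA, 14.0% AGGTCA and 1.55% TGACGTCA. Such matches describe these letters only.

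Total counts ranged from 36056135 to 54052502 per library, and the clock genes had 1741 to 20327 reads each. Rod transcripts were abundant in every library, with 135066 to 221753 reads of Sag (rod arrestin). Tissue carried over from outside the retina varied: the 19 lens genes tested of 21 listed summed to 35.5 to 22791 CPM (counts relative to the library total after TMM scaling) in vigabatrin and 65.4 to 22040 CPM in vehicle, with Cryaa present in every library. The 16 genes of pigment epithelium and choroid summed to 284 to 1287 CPM in vigabatrin and 326 to 2823 CPM in vehicle, the highest being vehicle 835, and Rpe65 was at 0 in no library. The 6 cornea genes tested of 9 summed to 237 to 387 CPM in vigabatrin and 228 to 392 CPM in vehicle. In RNA from whole tissue, fewer cells of a type and less RNA per cell cannot be told apart.

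Vigabatrin was compared with vehicle to ask which retinal transcripts differed under the drug. Among the 10 genes the PAR-bZIP factors, Per3 and both Nr1d genes had higher means and Arntl, Per1 and Per2 lower ones, all by small amounts. The edgeR quasi-likelihood test called 0 of the 10 at an adjusted p under 0.05, where it called 0.00574% of all genes (1 gene, St8sia2). At an unadjusted p under 0.05 it picked Dbp, Hlf and Nr1d2 as higher and Arntl as lower, 4 of 10, where 7.36% of all genes lay (3.68% higher and 3.69% lower). The groups did not overlap for 1 of the 10, Dbp, which was higher, against 1.48% of all genes (0.849% higher and 0.631% lower). Of the 10, 7 had a positive log2 fold change, with a median of 0.09, whereas 49.4% of all genes did, with a median near 0 (-0.0013). The 10 genes were chosen with earlier results of these data known, and several of them varied together across libraries. These counts therefore describe the genes and are no test of them as a set.

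**Figure D1:**
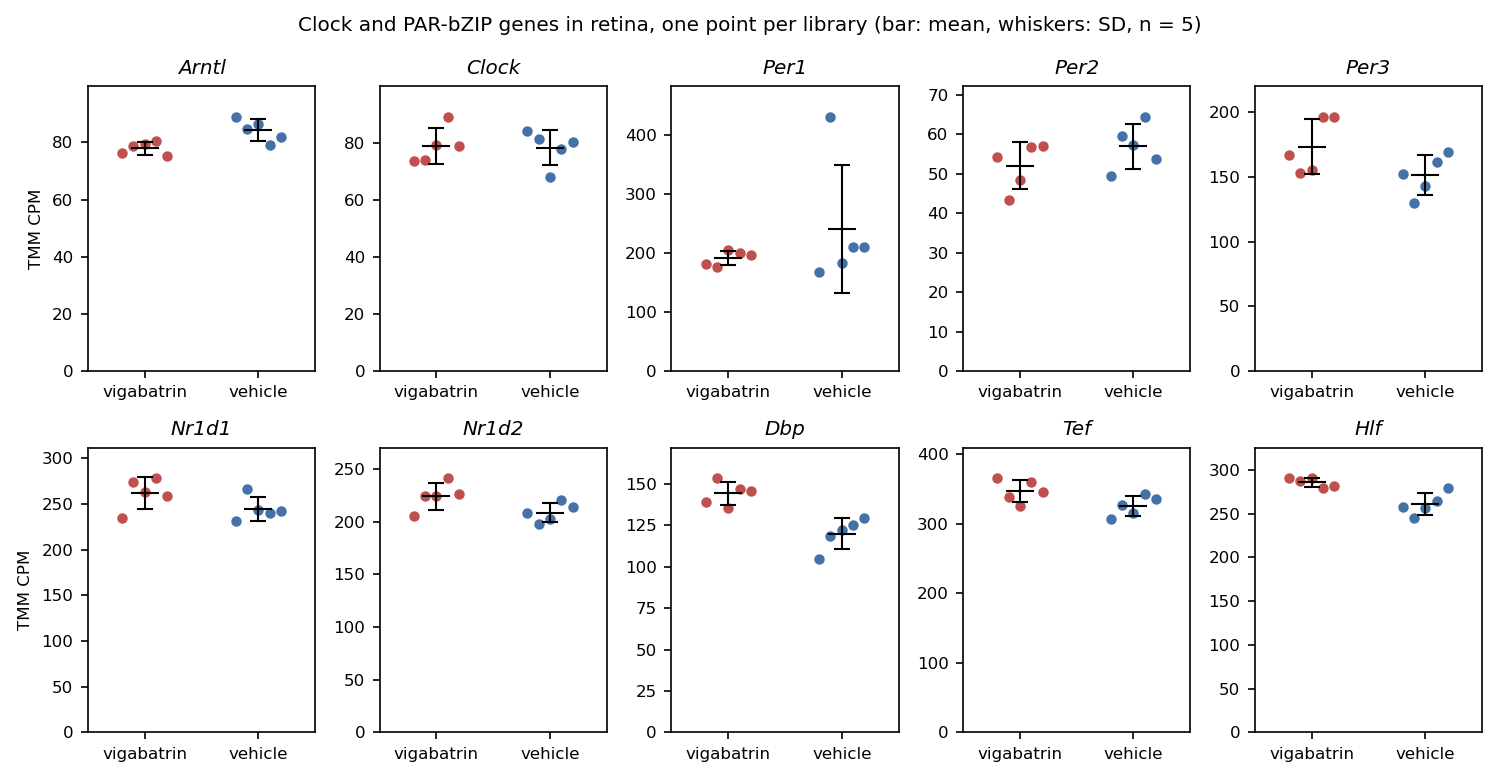
TMM-scaled CPM (y axis, from 0) of the 10 genes in the 5 vigabatrin and the 5 vehicle libraries, with 1 point per library, the mean as a bar and the SD as whiskers. All vigabatrin libraries of Dbp lie above all vehicle libraries, and 1 vehicle library of Per1 stands at 431 CPM.

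Per kilobase of the deposited gene length, the levels in these libraries ran from Nr1d1, at 96.3 ± 6.36 CPM per kb in vigabatrin and 90.0 ± 4.76 CPM per kb in vehicle, down to Per2, at 8.92 ± 1.02 and 9.77 ± 0.978 CPM per kb in vigabatrin and vehicle (SD, n = 5 each). By the median over the 10 libraries the order was Nr1d1, Tef, Dbp, Hlf, Nr1d2, Per1, Arntl, Per3, Clock and Per2. The library ranges overlapped between the neighbours Tef and Dbp, Hlf and Nr1d2, Nr1d2 and Per1, Arntl and Per3, and Clock and Per2. Since neighbours were measured in the same libraries, overlapping ranges do not settle their order within a library. Within libraries, Tef lay above Dbp in 1 of 5 vigabatrin and 5 of 5 vehicle libraries, and Arntl lay above Per3 in 2 of 5 vigabatrin and 4 of 5 vehicle libraries. Hlf lay above Nr1d2 in 8, Nr1d2 above Per1 in 9 and Clock above Per2 in 8 of the 10 libraries. The order also depends on the length used: per kilobase of the GENCODE M21 exon union, a length chosen after seeing the data, it was Nr1d1, Dbp, Tef, Hlf, Nr1d2, Per1, Per3, Arntl, Per2 and Clock, with medians of 10.6 CPM per kb for Arntl, 16.5 for Per3 and 5.75 for Clock. Under both lengths the PAR-bZIP factors and Nr1d1 stood above Clock, and by the deposited lengths the levels were 80.6 ± 3.90 CPM per kb for Dbp in vigabatrin and 67.1 ± 5.26 in vehicle, against 10.6 ± 0.840 and 10.5 ± 0.832 for Clock (SD, n = 5 each).

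Arntl (ENSMUSG00000055116, mm10 chromosome 7, 113207465 to 113314122, plus strand) encodes the activator that the rest of the loop depends on. It measured 76.3, 78.8, 79.4, 80.6 and 75.1 CPM in vigabatrin 2344, 2347, 2349, 2428 and 2429. In vehicle 832, 835, 1580, 1582 and 2345 it measured 89.1, 84.7, 86.3, 79.1 and 82.1 CPM. All 5 vigabatrin libraries lay below the vehicle median and 3 of them below the lowest vehicle library, vehicle 1582, so that the groups overlapped slightly. The log2 fold change was -0.11 (SE 0.04, edgeR quasi-likelihood adjusted p = 0.570), rank 428 by p of the 17435 genes. Clock (ENSMUSG00000029238, chromosome 5, 76212177 to 76304548, minus strand), which encodes the partner of ARNTL, had 73.6 to 89.1 CPM in vigabatrin with a median library of 78.7, and 67.9 to 84.1 CPM in vehicle with a median library of 80.2. Its log2 fold change was 0.01 (SE 0.07, edgeR adjusted p = 0.983), and plus or minus 2 SE spanned -0.12 to 0.15.

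The Per genes, the E-box-driven repressors of the loop, had means that differed in both directions. Per1 (ENSMUSG00000020893, chromosome 11, 69095217 to 69109960, plus strand) measured 181, 176, 205, 200 and 196 CPM in vigabatrin 2344, 2347, 2349, 2428 and 2429. Vehicle 832, 835, 1580, 1582 and 2345 had 168, 431, 184, 210 and 210 CPM. Vehicle 835 thus had more than any other library, and the other vehicle libraries spanned the vigabatrin range. The log2 fold change of -0.33 (SE 0.22, edgeR adjusted p = 0.793) was -0.01 without vehicle 835, and -0.01 in limma-voom with quality weights.

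Per2 (ENSMUSG00000055866, chromosome 1, 91415982 to 91459324, minus strand) measured 54.2, 43.4, 48.5, 56.9 and 57.2 CPM in vigabatrin 2344, 2347, 2349, 2428 and 2429. The vehicle libraries 832, 835, 1580, 1582 and 2345 had 49.6, 59.7, 57.4, 64.6 and 53.7 CPM. The groups overlapped, with vigabatrin 2347 the lowest library and vehicle 1582 the highest, and the log2 fold change was -0.13 (SE 0.09, edgeR adjusted p = 0.794). Without vigabatrin 2347 it was -0.07. Per3 (ENSMUSG00000028957, chromosome 4, 151003652 to 151044665, minus strand) ran the other way, with 167, 153, 155, 197 and 196 CPM in vigabatrin 2344, 2347, 2349, 2428 and 2429. In vehicle 832, 835, 1580, 1582 and 2345 it had 152, 130, 143, 161 and 170 CPM. Vigabatrin 2428 and 2429 lay above all vehicle libraries and the other 3 within the vehicle range. The log2 fold change was 0.20 (SE 0.09, edgeR adjusted p = 0.678).

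The nuclear receptor genes that repress Arntl had slightly higher means in vigabatrin. Nr1d1 (ENSMUSG00000020889, chromosome 11, 98767932 to 98775333, minus strand) had 234, 274, 264, 279 and 259 CPM in vigabatrin 2344, 2347, 2349, 2428 and 2429. The vehicle libraries 832, 835, 1580, 1582 and 2345 had 232, 267, 243, 241 and 243 CPM. The groups overlapped, and the log2 fold change was 0.10 (SE 0.05, edgeR adjusted p = 0.737). Its exons share 263 bases, 8.55% of their length in GENCODE M21, with the opposite-strand gene Thra, which encodes the thyroid hormone receptor alpha. Since the strand setting of the counting is not given, how reads of that stretch were assigned is not known. Thra itself had a log2 fold change of 0.07 (edgeR adjusted p = 0.744).

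Nr1d2 (ENSMUSG00000021775, chromosome 14, 18204054 to 18239127, minus strand) had 205, 224, 224, 242 and 226 CPM in vigabatrin 2344, 2347, 2349, 2428 and 2429. Vehicle 832, 835, 1580, 1582 and 2345 had 208, 198, 202, 221 and 214 CPM. Of the vigabatrin libraries, 4 lay above all vehicle libraries and vigabatrin 2344 lay among them. The log2 fold change was 0.10 (SE 0.05, edgeR adjusted p = 0.677).

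The PAR-bZIP factors had higher means in vigabatrin, and Dbp differed most. Dbp (ENSMUSG00000059824, chromosome 7, 45705088 to 45710155, plus strand), named for binding the D-site of the albumin promoter, measured 139, 153, 136, 147 and 146 CPM in vigabatrin 2344, 2347, 2349, 2428 and 2429. In vehicle 832, 835, 1580, 1582 and 2345 it measured 105, 118, 122, 125 and 129 CPM. The lowest vigabatrin library, at 136 CPM, lay above the highest vehicle library, at 129 CPM. The means were 144 ± 6.98 CPM in vigabatrin and 120 ± 9.41 CPM in vehicle (SD, n = 5 each), 20.2% higher in the fit, with a log2 fold change of 0.27 (SE 0.06).

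Dbp had rank 33 by p of the 17435 genes, and did not pass the edgeR test (adjusted p = 0.338). DESeq2's Wald test called it (adjusted p = 0.00966), where that test called 0.519% of its genes and none of the other 9. Over 25 alternatives the adjusted p of Dbp ranged from 0.00966 to 0.9998 and its log2 fold change from 0.15 to 0.29. The exons of Dbp share 539 bases, 18.0% of their length in GENCODE M21, with the opposite-strand gene Sphk2 (a sphingosine kinase). How reads there were assigned is not known. Sphk2 was much less abundant, at 22.7 ± 2.35 CPM in vigabatrin and 21.2 ± 1.26 CPM in vehicle (SD, n = 5 each), with a log2 fold change of 0.10 (edgeR adjusted p = 0.820).

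Hlf (ENSMUSG00000003949, chromosome 11, 90336536 to 90390895, minus strand) measured 290, 287, 291, 279 and 281 CPM in vigabatrin 2344, 2347, 2349, 2428 and 2429. Vehicle 832, 835, 1580, 1582 and 2345 had 257, 246, 256, 264 and 280 CPM. Of the vigabatrin libraries 4 lay above all vehicle libraries, and vigabatrin 2428 lay just under vehicle 2345. The log2 fold change was 0.13 (SE 0.04, edgeR adjusted p = 0.501), rank 179 by p. Tef (ENSMUSG00000022389, chromosome 15, 81802421 to 81826861, plus strand) had 366, 338, 326, 360 and 346 CPM in vigabatrin 2344, 2347, 2349, 2428 and 2429. Its values in vehicle 832, 835, 1580, 1582 and 2345 were 307, 327, 315, 342 and 336 CPM. The groups overlapped, with 3 vigabatrin libraries above all vehicle libraries, and the log2 fold change was 0.09 (SE 0.04, edgeR adjusted p = 0.691).

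**Figure D2:**
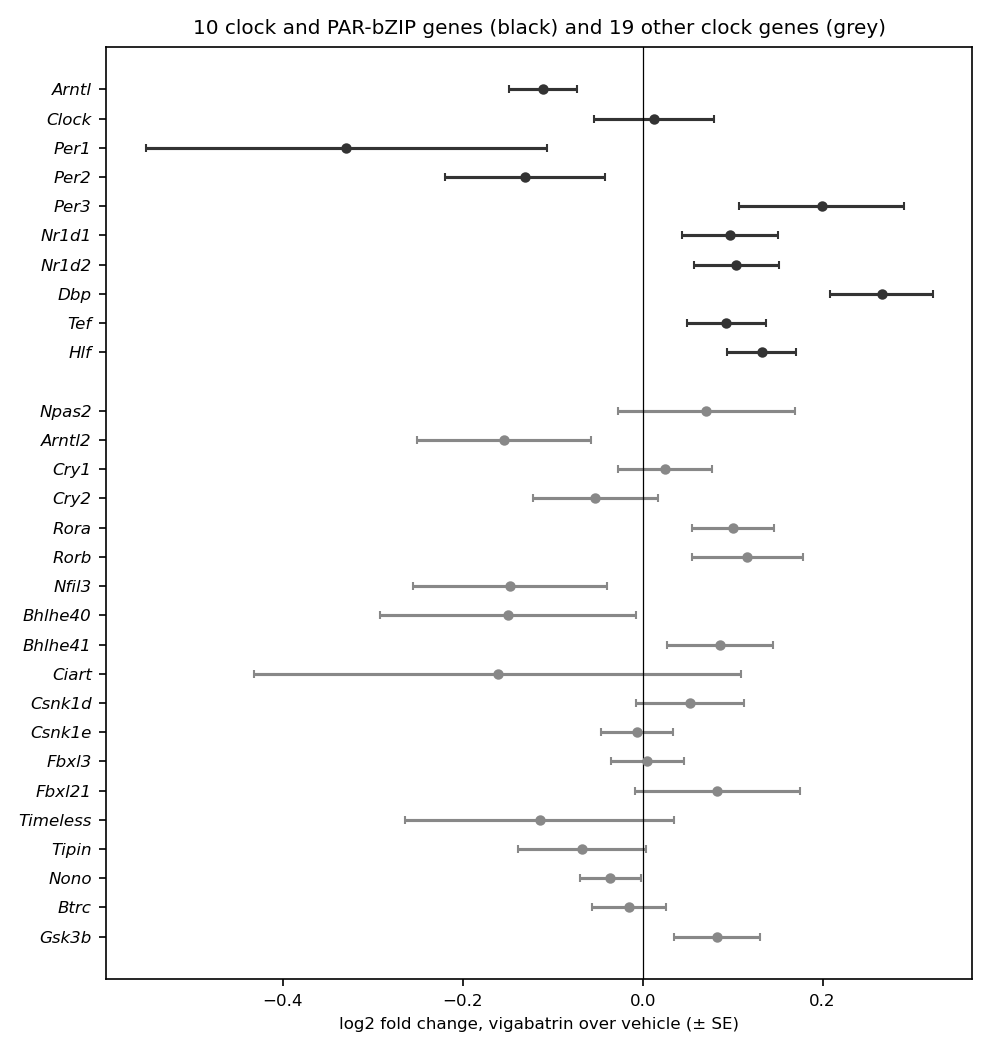
Log2 fold changes, vigabatrin over vehicle, with their SE (x axis), of the 10 clock and PAR-bZIP genes in black and of 19 other clock genes in grey. Dbp has the highest value at 0.27 and Per1 the lowest at -0.33 with the widest error among the black points.

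The ratio of Dbp to Arntl reads does not depend on how libraries were scaled. It was 1.82, 1.95, 1.71, 1.82 and 1.94 in vigabatrin 2344, 2347, 2349, 2428 and 2429, and 1.18, 1.40, 1.41, 1.59 and 1.58 in vehicle 832, 835, 1580, 1582 and 2345. The groups did not overlap, with means of 1.85 ± 0.0984 in vigabatrin and 1.43 ± 0.167 in vehicle (SD, n = 5 each). Dbp was higher without overlap and Arntl was lower, so this separation follows from the values above and is no further support. How many other gene pairs separate in this way was not counted. Dbp reads per Per1 read overlapped narrowly, from 0.661 to 0.874 in vigabatrin and from 0.275 to 0.664 in vehicle. A wider contrast took, for each library, the mean centred log2 CPM of the Per, Nr1d and PAR-bZIP genes minus that of Arntl and Clock, so that it is high where the loop's repressors and outputs are high relative to its activators. It lay between 0.004 and 0.13 in vigabatrin and between -0.27 and 0.04 in vehicle. Vehicle 832 was lowest, and the other 4 vehicle libraries lay at -0.03 to 0.04, with vehicle 1582 inside the vigabatrin range. Without Per1, a choice made after seeing the data, the contrast lay between 0.007 and 0.15 in vigabatrin, and in vehicle 832 and 835 it was -0.25 and -0.14, with the other 3 vehicle libraries at -0.03 to 0.04.

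**Figure D3:**
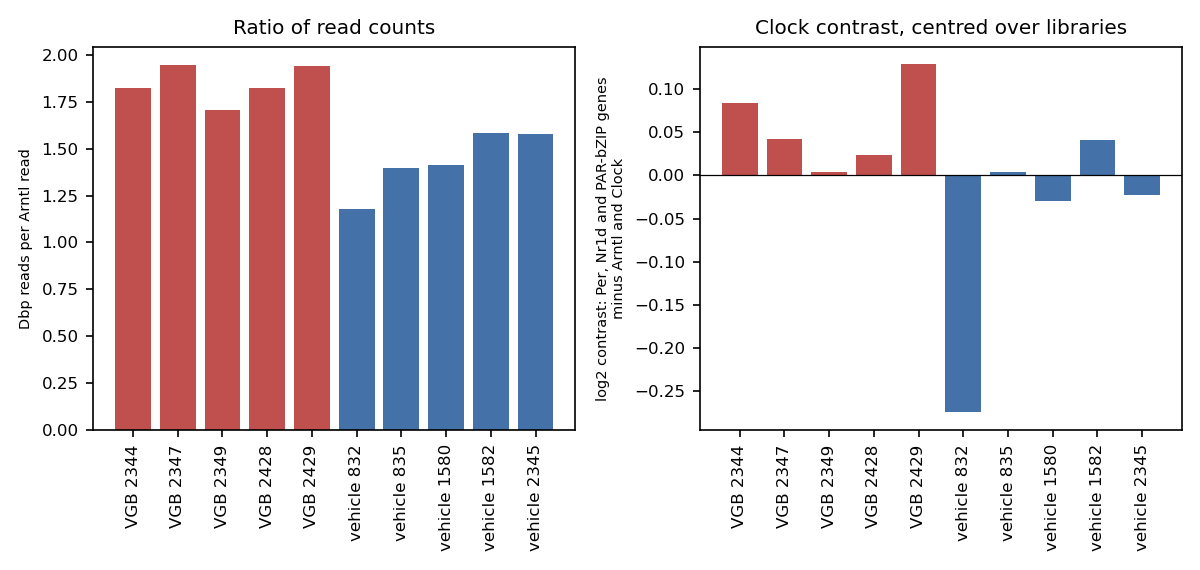
Left, reads of Dbp per read of Arntl in each library; right, the log2 contrast of Per, Nr1d and PAR-bZIP genes against Arntl and Clock, centred over the 10 libraries. VGB stands for vigabatrin; every VGB bar on the left exceeds every vehicle bar, whereas on the right vehicle 832 is lowest at -0.27, which without Per1 is -0.25, next to vehicle 835 at -0.14.

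Arntl was correlated with each of the other 9 genes across the 10 libraries, on log2 CPM. Over all libraries the PAR-bZIP factors varied inversely with it: Pearson's r was -0.83 for Dbp (permutation p = 0.00329, adjusted p = 0.0221), -0.81 for Tef (p = 0.00492, adjusted p = 0.0221) and -0.76 for Hlf (p = 0.0125, adjusted p = 0.0374), each adjusted over the 9 pairs. Spearman's rho was -0.76, -0.78 and -0.72 for Dbp, Tef and Hlf (permutation p = 0.0148, 0.0101 and 0.024; adjusted p = 0.0667, 0.0667 and 0.0721). As residuals from the group means r was -0.56 for Dbp, -0.66 for Tef and -0.38 for Hlf (adjusted permutation p = 0.311, 0.311 and 0.6003), and without vehicle 832 and 1580, the 2 libraries farthest from the median of Arntl, it was -0.63, -0.53 and -0.66 (adjusted permutation p = 0.265, 0.305 and 0.265). Among the vigabatrin libraries Dbp did not run opposite to Arntl: 2429 and 2428, with the lowest and highest Arntl at 75.1 and 80.6 CPM, had 146 and 147 CPM of Dbp. Those libraries had 346 and 360 CPM of Tef and 281 and 279 CPM of Hlf. In vehicle 832, where Arntl was highest at 89.1 CPM, Dbp and Tef were lowest at 105 and 307 CPM. Hlf was lowest in vehicle 835, at 246 CPM. None of the adjusted values within groups or without those libraries passed the threshold, and r was weaker in each case. Leaving out libraries also raises the p-value, so in that setting the threshold cannot tell what the relations rest on. The residuals keep all 10 libraries, and there the relations were weaker once the difference between groups was taken out. Over all 10 libraries r lay, for the remaining 6 genes, between -0.60 (Per3) and 0.17 (Per1), with the lowest adjusted p at 0.147 for Per3; Spearman's rho for these 2 was -0.56 and 0.08 (adjusted permutation p = 0.218 and 0.865).

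Vehicle 835, the library with 431 CPM of Per1, was also high for some other clock-driven genes and for glucocorticoid-responsive genes. Ciart, which encodes a repressor of the ARNTL dimer, had 60.1 CPM there, against 20.3 to 30.5 CPM in the other vehicle libraries and 25.2 to 35.8 CPM in vigabatrin. Usp2, a deubiquitinase gene with clock-driven transcription, had 460 CPM there, against 167 to 249 CPM in the other vehicle libraries and 166 to 197 CPM in vigabatrin. Of 12 glucocorticoid-responsive genes, 11 had their highest value in vehicle 835, as did 25.5% of all genes tested. Dbp and Tef were not high in that library, at 118 and 327 CPM. Hlf, Per3, Nr1d2 and Cry1 had their lowest value of all libraries there, at 246, 130, 198 and 49.6 CPM. Of the 19 other clock genes, 9 lay above the vigabatrin range in vehicle 835 and 7 below it. Of the 10 genes described, 3 lay above that range and 4 below it. The shares of all genes above and below that range were not counted. Vehicle 835 also had the highest pigment epithelium and choroid sum, 2823 CPM, with 13 of the 16 genes highest there, and 22040 CPM of lens genes. Vigabatrin 2344, with 22791 CPM of lens genes and 1287 CPM of pigment epithelium and choroid genes, had 181 CPM of Per1. With the pigment epithelium level as a term the log2 fold change of Per1 was -0.13 (edgeR adjusted p = 0.879), and with the lens level as a term it was -0.28 (adjusted p = 0.735).

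The glucocorticoid-responsive list, a class that includes Per1, had 12 of 12 genes with lower means in vigabatrin, as did 8817 of the 17435 genes tested. Its median log2 fold change was -0.60, with -0.0013 over all genes, and 0 were called, where 0.00574% of all genes were. The median was -0.27 without vehicle 835, 0.06 among title numbers over 2000 and 0.07 with that number as a term. Both title number settings compare vigabatrin with vehicle 2345 alone, so they are not separate results. The pigment epithelium and choroid list had 14 of 16 lower means (median -1.04), and with its level as a term the glucocorticoid median was -0.21. At an unadjusted p under 0.05 there were 8 lower and 0 higher, where 3.69% of all genes were lower. Fkbp5, a co-chaperone of the glucocorticoid receptor, had 31.5, 30.0, 29.7, 30.1 and 29.2 CPM in vigabatrin 2344, 2347, 2349, 2428 and 2429. In vehicle 832, 835, 1580, 1582 and 2345 it had 52.9, 98.6, 57.0, 55.2 and 29.3 CPM. Of the vehicle libraries, 2345 alone lay among the vigabatrin ones. The log2 fold change of Fkbp5 was -0.96 (SE 0.24, edgeR adjusted p = 0.424). With title number as a term over or under 2000 it was 0.04, and without vehicle 2345 Fkbp5 was called (edgeR adjusted p = 0.0414). In that last fit all vehicle libraries are numbered under 2000 and all vigabatrin libraries over it, so treatment and numbering cannot be told apart. Zbtb16, a zinc finger transcription factor, showed the same order, with 7.68 to 10.9 CPM in vigabatrin, 9.74 CPM in vehicle 2345 and 15.9 to 50.8 CPM in the other vehicle libraries (log2 fold change -1.40, SE 0.36, edgeR adjusted p = 0.453). Per1 had 176 to 205 CPM in vigabatrin, and 168, 184 and 210 CPM in vehicle 832, 1580 and 1582, where Fkbp5 and Zbtb16 were above vigabatrin.

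**Figure D4:**
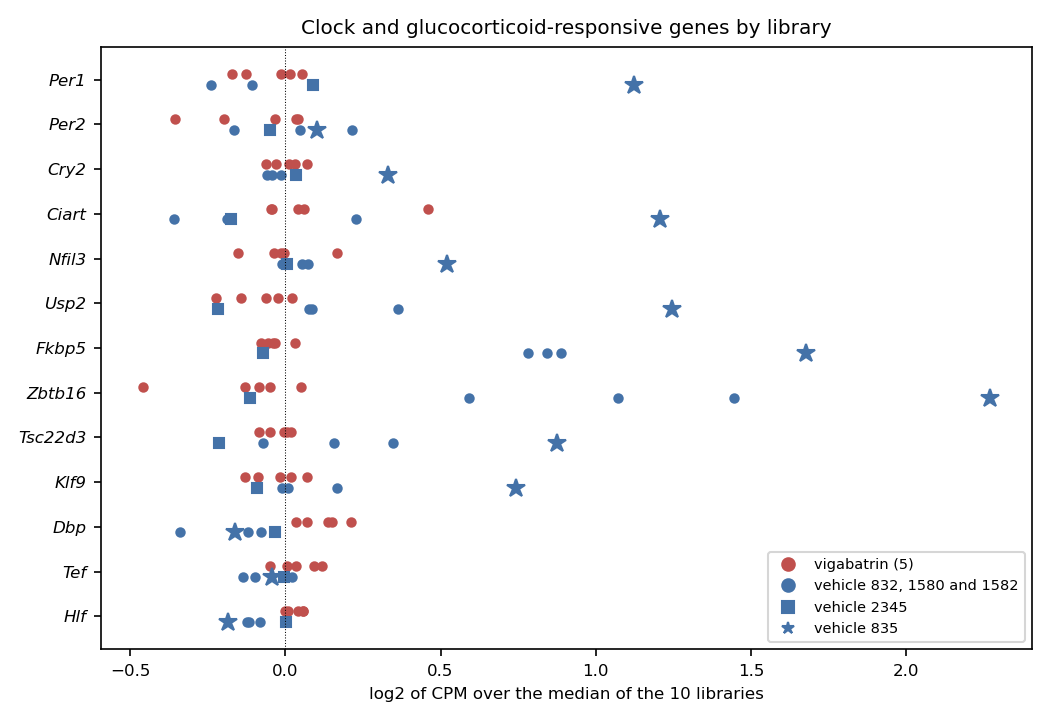
Log2 of CPM over the median of the 10 libraries (x axis) for selected clock genes, the clock-driven gene Usp2 and glucocorticoid-responsive genes, with 1 marker per library. Per3, Nr1d2 and Cry1, which were lowest in vehicle 835, are not drawn. Vehicle 835 (star) is the highest library for Per1, Cry2, Ciart, Nfil3, Usp2, Fkbp5, Zbtb16, Tsc22d3 and Klf9 but not for Per2, Dbp, Tef or Hlf; vehicle 2345 (square) lies with the vigabatrin libraries for Fkbp5 and Zbtb16.

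Title numbers follow the treatment in part: all 5 vigabatrin libraries and vehicle 2345 are numbered over 2000 and the other 4 vehicle libraries under it. What the numbers stand for is not given in the labels. Vehicle 2345 lay within the vigabatrin range for 7 of the 10 clock genes, vehicle 1582 for 6, vehicle 832 and 835 for 3 each and vehicle 1580 for 2. What share of all genes lay within that range in each library was not counted. Vehicle 1582, numbered under 2000, was close to vehicle 2345 in this count. Among the libraries numbered over 2000, where vehicle 2345 alone stands for vehicle and is assumed to vary like the rest, the log2 fold change of Dbp was 0.15, of Nr1d1 0.11 and of Arntl -0.08. In the same comparison that of Hlf was 0.03, of Per3 0.03 and of Per1 -0.14. The 10 values had edgeR adjusted p of at least 0.983 there, and the numbering cannot be told apart from the treatment beyond that library. Without the 4 libraries rich in lens transcripts the log2 fold change of Dbp was 0.29 and that of Nr1d1 0.19, neither called.

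**Figure D5:**
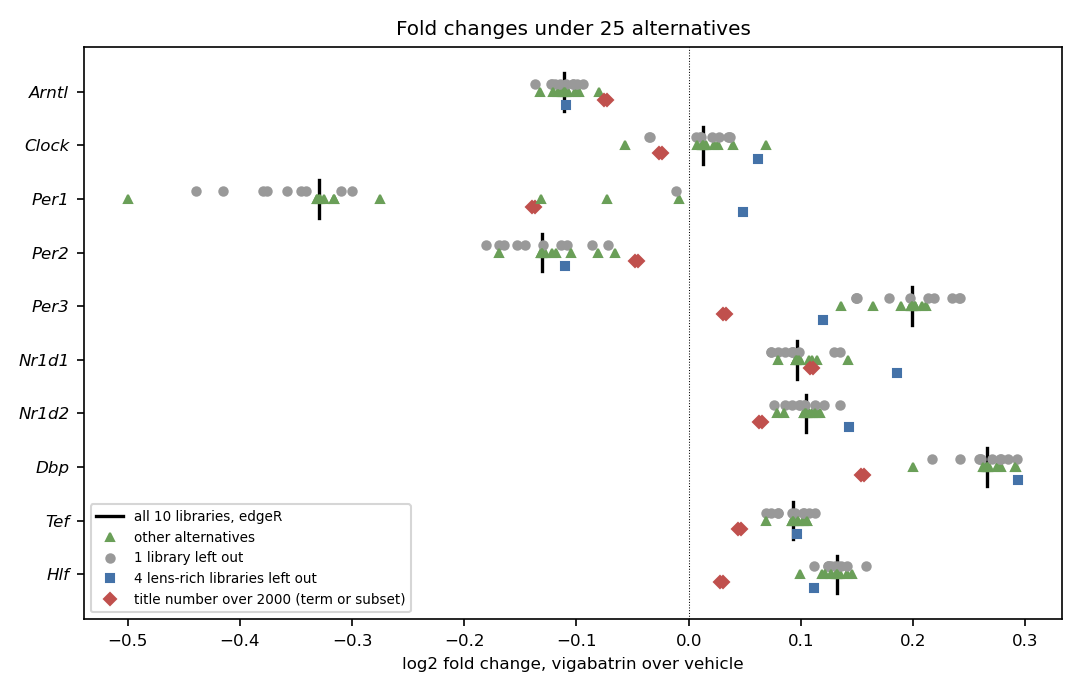
Log2 fold changes, vigabatrin over vehicle (x axis), of the 10 genes over all libraries (black bars) and under 25 alternatives (symbols). Dbp stays between 0.15 and 0.29, Per1 lies between -0.14 and 0.05 in those without vehicle 835, and the restriction to title numbers over 2000 brings Per3 and Hlf to 0.03.

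Of 19 other genes of the clock loops and their regulators, 9 had higher and 10 lower means in vigabatrin, with a median log2 fold change near 0 (-0.0061) and 0 called (0.00574% of all genes). Their log2 fold changes ran from -0.16 to 0.12, and the lowest edgeR adjusted p was 0.677. The cryptochromes, partners of PER in repression, measured 0.03 for Cry1 (SE 0.05) and -0.05 for Cry2 (SE 0.07). Among the ROR receptors, the activators of Arntl, Rora measured 0.10 (SE 0.05) and Rorb, the form abundant in retina, 0.12 (SE 0.06). Nfil3, the D-box repressor, had 12.9 ± 1.04 CPM in vigabatrin and 14.3 ± 2.42 CPM in vehicle (SD, n = 5 each), a log2 fold change of -0.15 that was -0.04 without vehicle 835. Bhlhe40 and Bhlhe41, E-box repressors, measured -0.15 and 0.09, Ciart -0.16 and Npas2, which can replace Clock, 0.07.

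Of 12 genes with daily transcription in many tissues, 3 had higher and 9 lower means (median log2 fold change -0.10). The test called 0 of them, where it called 0.00574% of all genes. Of the 12, 9 were highest in vehicle 835, as were 25.5% of all genes. Tsc22d3, Klf9 and Pdk4, all lower and highest in vehicle 835, are also in the glucocorticoid-responsive list, so these lists are not separate. The median was -0.04 without vehicle 835 and 0.08 among title numbers over 2000. Usp2 measured -0.49 (SE 0.23) and the endoplasmic reticulum stress gene Herpud1 -0.12, while the cell cycle kinase gene Wee1 measured 0.18 and Por, cytochrome P450 oxidoreductase, 0.03. Without vehicle 835 Usp2 was -0.18, Herpud1 -0.06 and Wee1 0.28, and without vehicle 832 Wee1 was 0.11. Of 11 retinal genes known for day-night differences, 9 were tested, with 4 higher and 5 lower (median -0.02). Of these 0 were called, where 0.00574% of all genes were. Drd4, the photoreceptor dopamine D4 receptor, had 199 to 225 CPM in vigabatrin and 226 to 317 CPM in vehicle, without overlap, as was the case for 0.631% of all genes in that direction. Its log2 fold change was -0.26 (SE 0.09, edgeR adjusted p = 0.570). Nr4a1 measured -0.51, Gnaz 0.07 and the melatonin receptor gene Mtnr1a 0.40 (SE 0.33), the last at under 0.4 CPM in every library.

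Genes induced through CREB, to which Per1 also belongs, had lower means in 10 of 10 cases, as did 8817 of the 17435 genes tested. Their median log2 fold change was -0.46, and 0 were called, where 0.00574% of all genes were. Of the 10, 6 were highest in vehicle 835, as were 25.5% of all genes. The median was -0.31 without vehicle 835 and -0.19 with limma-voom. It was -0.61 both among title numbers over 2000 and with that number as a term. Both settings compare vigabatrin with vehicle 2345 alone, so they are not separate results. Nr4a1 is also in the list of retinal genes. Npas4 measured 4.73 ± 0.847 CPM in vigabatrin and 7.92 ± 0.401 CPM in vehicle (SD, n = 5 each; log2 fold change -0.74, edgeR adjusted p = 0.180), and Fosb measured -0.64. Per1 was at 176 to 205 CPM in vigabatrin and 168 to 210 CPM in the vehicle libraries other than 835.

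As residuals from the group means over the 10 libraries, the log2 CPM of Cp (ceruloplasmin) followed the clock contrast most closely of 13139 genes compared, with r = 0.96, before Dio3 at 0.94, Casp6 at 0.93, Dsg2 at 0.91 and Mecom at 0.90. The lowest correlations were those of Zranb3 at -0.94, Kif21a at -0.93, Sorcs3 at -0.91, Crabp2 at -0.89 and Nf1 at -0.89. These 10 were taken as extremes of many genes, share the same libraries and follow a contrast in which vehicle 832 is lowest, so they are descriptions without a test.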

How the data were processed

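The deposited table gives whole-number read counts per gene, counted by the authors with HTSeq 0.6.1 against mm10 per the submitters' processing notes. DESeq2 and edgeR 3.16.5 are listed there too, with no role. The aligner, annotation release and strand setting were not given in the sources used here. A further 1 column matches no sample and was left aside.

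Genes were kept by filterByExpr. TMM factors, glmQLFit and glmQLFTest of edgeR 4.0.16 (with limma 3.58.1 under R 4.3.3) compared the groups over all genes with no covariate. A gene was called at a Benjamini-Hochberg adjusted p below 0.05. The SE is the log2 fold change over the root of the F statistic, and its median over genes was 0.09. No 2 libraries of a group agreed within sampling noise: their chi-square divided by its degrees of freedom was 8.46 to 139. The test was tried on simulated counts first. Correlation p-values are two-sided, from 100000 permutations. Per-kilobase values use the deposited gene lengths. Exon overlaps come from GENCODE M21 and promoters from RefSeq.

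The members and lists were chosen with earlier results of these data known. Named were all 10 members, other clock genes by role, the 2 genes of smallest p per direction in each other list, and the 5 genes at each end of the correlation with the clock contrast with a mean CPM of at least 1, predicted genes passed over. Some listed genes are not reported here. The genes St8sia2, Thra, Sphk2, Tsc22d3, Klf9 and Pdk4 were named after their values were seen. Alternatives covered scaling, filters, tools (DESeq2 1.42.0 among them), left-out libraries, the title number, carried-over tissue and the threshold. Exon union lengths and the clock contrast without Per1 were added after seeing the data.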

Additional observations from a re-analysis of the deposited data

Results flagged for a closer look

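Dixon's test for a single extreme value was applied to 66 sets of 5 libraries and marked 7, with 3.3 (1 in 20) to be had by chance alone. Vehicle 835 was high for Per1 (431 CPM, others 168 to 210), Ciart (60.1 CPM, others 20.3 to 30.5), Usp2 (460 CPM, others 167 to 249), Cry2 (214 CPM, others 163 to 174) and Nfil3 (18.6 CPM, others 12.9 to 13.7). Vigabatrin 2428 was high for Ciart at 35.8 CPM, against 25.2 to 27.2 CPM in the other vigabatrin libraries. Vehicle 832 was low for the clock contrast at -0.27, against -0.03 to 0.04 in the other vehicle libraries. Without Per1 vehicle 832 was at -0.25 and vehicle 835 at -0.14, and the gap of vehicle 832 was 0.39 of the range, under the critical value of 0.71.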

How the results depend on the processing

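Among the 10 clock genes, Arntl, Per2, Per3, Nr1d1, Nr1d2, Dbp, Tef and Hlf kept their direction under all 25 alternatives, and DESeq2's Wald test (Dbp, log2 fold change 0.26, adjusted p = 0.00966) gave the only call. Clock reversed to -0.057 without vehicle 1580 and 1582, to -0.026 among title numbers over 2000 and to -0.023 with that number as a term; leaving out 1 library gave -0.036 to 0.037. Per1 reversed to 0.049 without the 4 lens-rich libraries, and leaving out 1 library gave -0.439 to -0.011.

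Genes called, 1 higher and 0 lower, became 37 and 50 with DESeq2 and 3 and 0 with limma-voom. The 1 higher gene became 0 with library size only, with no filter, without vehicle 832 and 835, without vehicle 1580 and 1582, without the lens-rich libraries, among or with a term for title numbers, and with lens or pigment epithelium terms. Leaving out 1 library gave 0 to 13 higher and 0 to 26 lower, the highest without vehicle 2345, where Fkbp5 was the 1 glucocorticoid gene called (0 to 1). Without that library treatment and title numbering over or under 2000 cannot be told apart. DESeq2 called 2 CREB genes, Npas4 and Fosb. By unadjusted p under 0.05, edgeR had 1284 genes.

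Reversals of other genes were as follows. With limma-voom: Cry2 0.015, Bhlhe40 0.013, Ciart 0.236. Without vehicle 832 and 835: Por -0.024, Cry1 -0.032, Cry2 0.011, Ciart 0.139. Without vehicle 1580 and 1582: Npas2 -0.016. Without the lens-rich libraries: Por -0.0016, Mtnr1a -5.1e-05, Cry2 0.040, Bhlhe40 0.084, Ciart 0.416. Among title numbers over 2000: Usp2 0.131, Por -0.057, Herpud1 0.013, Mtnr1a -0.022, Fkbp5 0.035, Bhlhe40 0.054, Bhlhe41 -0.021, Ciart 0.278. With the number as a term: Usp2 0.133, Por -0.055, Herpud1 0.016, Mtnr1a -0.021, Fkbp5 0.038, Bhlhe40 0.056, Bhlhe41 -0.018, Ciart 0.281. With the pigment epithelium level: Cry1 -0.0039, Ciart 0.117. Leaving out 1 library gave Por -0.0039 to 0.048, Cry1 -0.019 to 0.051, Cry2 -0.085 to 0.024, Bhlhe40 -0.221 to 0.023 and Ciart -0.288 to 0.214. The glucocorticoid median, -0.597, was 0.063 among title numbers over 2000 and 0.065 with the number as a term. Both title number settings compare vigabatrin with vehicle 2345 alone. The cause of these changes was not tested.

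Correlations with Arntl as residuals from group means were -0.12 for Per1, -0.55 for Per2, 0.22 for Nr1d1, -0.56 for Dbp, -0.66 for Tef and -0.38 for Hlf. Without the 2 farthest libraries they were 0.74 for Per1 (adjusted permutation p = 0.136), 0.14 for Per2, 0.27 for Nr1d1, -0.63 for Dbp, -0.53 for Tef and -0.66 for Hlf. No paired analysis was possible because the groups share no title number.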
